A study of Mus musculus with 24 samples.

Results

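The genes described here lie around *Acod1* on mouse chromosome 14. *Acod1*, also called *Irg1*, encodes the enzyme that makes itaconate and is the gene deleted in *Irg1*-/- mice. The members are *Tbc1d4*, *Uchl3*, *Kctd12*, *Mycbp2*, *Slain1*, *Rbm26*, *Ndfip2* and *Spry2*, which are 8 of the 22165 genes of the counts table. They were chosen by their position and by the differences between WT and *Irg1*-/- levels already seen in these libraries. Differences between genotypes are therefore given for them as a description, with no test.

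The cells were bone marrow-derived macrophages (BMDMs) of mice 8 to 20 weeks old, grown for 7 days in M-CSF, the growth factor that turns marrow precursors into macrophages, at 20 ng/ml. The *Irg1*-/- mice were C57BL/6N lacking *Acod1*, and the WT mice were C57BL/6N from a commercial breeder, so colony and genotype cannot be told apart. Cells of each genotype were left unstimulated (Unstim.) or given LPS at 100 ng/ml. LPS was given for 3 h after a mock period (LPS 3h) or for 24 h (LPS 24h). A further group had LPS for 24 h, 1 h of rest and LPS again for 3 h (LPS 24h->LPS 3h, called tolerized here). The labels of the LPS 3h group name the mock period. In the paper's protocol it was 24 h without LPS, followed by fresh medium and the same 1 h of rest. There were thus 8 groups with 3 independent cultures apiece, and the 24 cultures gave 1 library each, with counts taken from the ends of polyadenylated transcripts.

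LPS is a bacterial cell wall component that macrophages sense through TLR4, which starts a wave of transcription in which *Acod1* is one of the most strongly induced genes. The ACOD1 enzyme makes itaconate in mitochondria from cis-aconitate, an intermediate of the TCA cycle. The members have unrelated functions. KCTD12 is an auxiliary subunit of GABA-B receptors, MYCBP2 is a very large ubiquitin ligase best known from axons, and SLAIN1 binds the growing ends of microtubules. UCHL3 is a ubiquitin C-terminal hydrolase that also acts on NEDD8. TBC1D4, also called AS160, is a substrate of AKT that restrains Rab GTPases in glucose transporter traffic. RBM26 is an RNA-binding protein of nuclear RNA decay, NDFIP2 is a membrane adaptor that activates HECT ubiquitin ligases of the NEDD4 family, and SPRY2 (Sprouty 2) is a feedback inhibitor of receptor tyrosine kinase and ERK signalling.

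All positions are on chromosome 14 in GRCm38 with GENCODE M21 annotation, where all 8 members are protein-coding. *Acod1* (ENSMUSG00000022126.6) spans chr14:103046977-103056573 on the plus strand. On its centromeric side lie *Tbc1d4* (ENSMUSG00000033083.16, chr14:101442360-101609191, minus strand), *Uchl3* (ENSMUSG00000022111.8, chr14:101653967-101696125, plus strand) and *Kctd12* (ENSMUSG00000098557.1, chr14:102976581-102982637, minus strand). *Kctd12* ends 64.3 kb from *Acod1*, whereas *Uchl3* and *Tbc1d4* are 1351 kb and 1438 kb away. On the telomeric side follow *Mycbp2* (ENSMUSG00000033004.14, chr14:103113411-103346814, minus strand) at 56.8 kb and *Slain1* (ENSMUSG00000055717.13, chr14:103650228-103704907, plus strand) at 594 kb. Farther out are *Rbm26* (ENSMUSG00000022119.15, chr14:105106751-105177327, minus strand) at 2050 kb, *Ndfip2* (ENSMUSG00000053253.16, chr14:105258573-105309298, plus strand) at 2202 kb and *Spry2* (ENSMUSG00000022114.4, chr14:105891947-105896819, minus strand) at 2835 kb. *Kctd12* exons overlap the lincRNA *Gm26778* on the other strand by up to 3686 bases and *Mir5130* by 84 bases. *Slain1* exons overlap *Slain1os* and a miRNA gene. Strand use in the counting is not stated, so reads of these overlapping genes and of *Kctd12* or *Slain1* cannot be told apart.

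The promoters shown are those of the genes on which the results turn, namely *Kctd12*, which was induced with *Acod1*, *Acod1* itself, *Tbc1d4*, which fell, and *Spry2*, the farthest member. Each line gives the 250 bases before the transcription start from RefSeq (GRCm38.p6), 5′ to 3′ on the gene's strand. Capitals mark CpG dinucleotides.
Kctd12 (chr14:102982638-102982887, minus strand): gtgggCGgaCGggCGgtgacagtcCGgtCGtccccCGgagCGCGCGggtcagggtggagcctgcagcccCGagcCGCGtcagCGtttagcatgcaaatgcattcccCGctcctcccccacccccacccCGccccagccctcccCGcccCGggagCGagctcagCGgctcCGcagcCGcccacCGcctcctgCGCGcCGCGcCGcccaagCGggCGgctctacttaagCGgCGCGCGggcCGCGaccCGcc
Acod1 (chr14:103046762-103047011, plus strand): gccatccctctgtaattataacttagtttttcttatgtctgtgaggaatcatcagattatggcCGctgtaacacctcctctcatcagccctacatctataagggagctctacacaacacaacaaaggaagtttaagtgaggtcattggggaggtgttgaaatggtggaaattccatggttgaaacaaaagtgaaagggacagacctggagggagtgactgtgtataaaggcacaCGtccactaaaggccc
Tbc1d4 (chr14:101609192-101609441, minus strand): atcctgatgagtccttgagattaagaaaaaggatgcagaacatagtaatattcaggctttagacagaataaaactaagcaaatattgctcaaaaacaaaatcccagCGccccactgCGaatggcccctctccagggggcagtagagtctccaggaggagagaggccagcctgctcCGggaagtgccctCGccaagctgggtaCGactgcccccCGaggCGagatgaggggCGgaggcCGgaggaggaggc
Spry2 (chr14:105896820-105897069, minus strand): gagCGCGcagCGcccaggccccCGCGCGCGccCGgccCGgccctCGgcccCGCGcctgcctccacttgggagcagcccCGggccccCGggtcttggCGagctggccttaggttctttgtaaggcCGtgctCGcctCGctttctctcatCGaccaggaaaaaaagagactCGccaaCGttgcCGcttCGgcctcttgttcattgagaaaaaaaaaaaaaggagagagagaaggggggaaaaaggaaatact
The *Kctd12* promoter held 36 CpG dinucleotides and 77.6% G+C, and 2.58% of the 32851 promoters of the same length in the RefSeq table held as many CpG. The *Acod1* promoter held 2 CpG and 44.4% G+C, and 81.2% of promoters held as many. *Spry2* (23 CpG, as many in 13.3% of promoters) and *Tbc1d4* (9 CpG, 40.3%) lay between them, and the median over all promoters was 6. Promoter sequences were matched for 7 of the 8 members. *Mycbp2* is named only. Both strands of these windows were searched for the NF-kappaB motif and for AP-1 (TGANTCA), CRE (TGACGTCA) and the ISRE motif, which 7.25%, 6.75%, 1.55% and 2.98% of all promoters hold. Among the 7 members and *Acod1*, the single match was an NF-kappaB motif in *Slain1*.

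The libraries held 3927378 to 20430359 counts on genes. Levels are given as normalised CPM, the usual count unit scaled to library size, here with edgeR's TMM factors. *Acod1* matched the labels: in WT cells its mean was 22181 CPM after LPS 3h, 4536 CPM after LPS 24h and 12630 CPM in tolerized cells, against 12.0, 8.75 and 14 CPM in *Irg1*-/- cells (log2 difference -10.82, -9.02 and -9.82; edgeR adjusted p = 2.68e-12, 5.85e-11 and 1.33e-11). In unstimulated cells it was 8.42 CPM in WT and 9.77 CPM in *Irg1*-/- cells, so those 6 libraries were not checked by it. All 7 macrophage markers examined were detected in every library (summed 3242 to 9690 CPM), and T cell, B cell, dendritic, mast and erythroid markers were at or near 0. Each sample label also carries a prefix numbered 1 to 4 whose meaning is not given. All 6 unstimulated libraries have prefix 4, and no LPS-treated *Irg1*-/- library does. The *Irg1*-/- response of LPS 3h or LPS 24h against Unstim. and the prefix therefore cannot be told apart within a prefix, and WT responses within prefix 4 rest on 1 LPS library against 3. A fit with the label prefix as a term took the offset of prefix 4 from the WT LPS libraries and assumed it equal in both genotypes. *Irg1*-/- values against Unstim. from that fit rest on this assumption, which no *Irg1*-/- library can check.

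Of the 7 measured neighbours, 4 passed the test in at least 1 of 8 LPS comparisons. Single comparisons called 3.99% to 35.9% of all tested genes. *Kctd12* was the neighbour that rose most, *Tbc1d4* fell, *Mycbp2* and *Uchl3* moved in some comparisons, and *Rbm26*, *Ndfip2* and *Spry2* passed the threshold in none of 8 (edgeR; 0, 1 and 1 at an unadjusted p under 0.05, and 0 each by DESeq2). Of the 8 members, 7 passed the filter on low counts, and *Slain1* did not. The test was the quasi-likelihood F test of edgeR, fitted over all 24 libraries, with Benjamini-Hochberg adjustment over 11878 genes and a threshold of 0.05. Across 4 LPS comparisons in each genotype, 16 of the 56 tests passed. The share of all genes that passed at least once was not counted, so no reading is taken from these counts.

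For LPS 3h against Unstim. in WT, 1 of 7 was higher (15.8% of all tested genes were called higher) and 1 lower (16.3%), where 32% of genes were called in either direction. For *Irg1*-/- cells 2 were higher (17% of all genes) and 1 lower (18.9%), with 35.9% in either direction. These shares of the members were 28.6% and 42.9%, near those of all genes. For LPS 24h against Unstim., 1 was higher (9.25%) and 2 lower (6.98%) in WT, with 16.2% in either direction, and in *Irg1*-/- cells 0 were higher (7.31%) and 1 lower (6.38%), with 13.7% in either direction. For LPS 24h->LPS 3h against LPS 24h, 1 was higher and 0 lower in WT (2.46% and 1.53% of all genes, 3.99% in either direction) and in *Irg1*-/- cells (3.44% and 1.7%, 5.14%), and that 1 gene was *Kctd12* in both. For LPS 24h->LPS 3h against LPS 3h, 1 was higher (12.4%) and 2 lower (13.1%) in WT, with 25.5% in either direction, and 0 were higher (13.1%) and 2 lower (14.1%) in *Irg1*-/- cells, with 27.2% in either direction. The median log2 fold change of the 7 was 0.42 in WT and 0.28 in *Irg1*-/- cells for LPS 3h against Unstim., beside -0.18 and -0.20 over all tested genes.

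**Figure D1:**
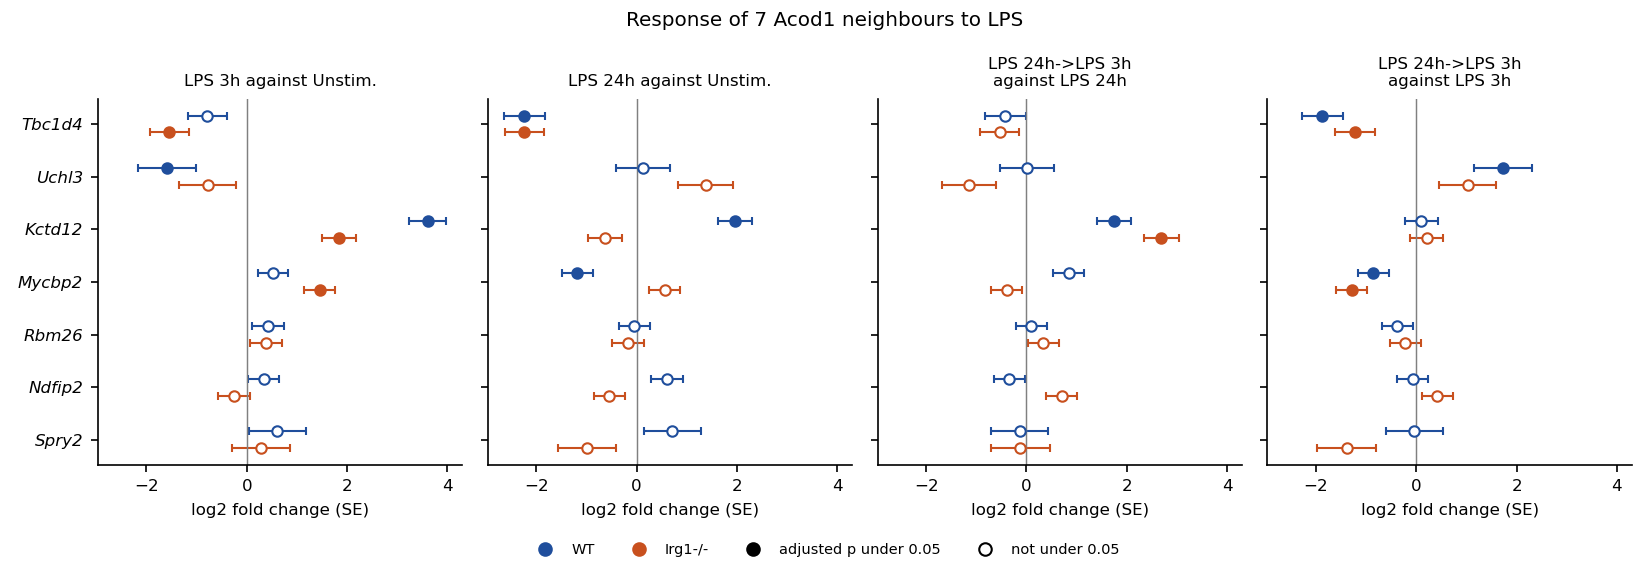
Log2 fold change with its standard error (x axis) of the 7 tested neighbours (rows, in chromosome order) in 4 LPS comparisons, WT in blue and *Irg1*-/- in orange; filled points have an adjusted p under 0.05. *Kctd12* is filled to the right at LPS 3h in both genotypes (3.61 and 1.85), and *Tbc1d4* is filled to the left at LPS 24h in both (-2.24 each).

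*Kctd12*, the GABA-B receptor auxiliary subunit gene next to *Acod1* on its centromeric side, rose with LPS in both genotypes. In WT cells it read 51.1, 78.4 and 59.9 CPM unstimulated and 1185, 528 and 593 CPM after LPS 3h, a 12.2-fold higher mean (log2 fold change 3.61 ± 0.36 SE, edgeR adjusted p = 1.79e-09). The libraries of these 2 groups did not overlap, and the lowest count behind any *Kctd12* value was 452. In cells without *Acod1* it read 103, 85.2 and 84.5 CPM unstimulated and 455, 269 and 260 CPM after LPS 3h, a 3.60-fold higher mean (log2 1.85 ± 0.34, edgeR adjusted p = 6.38e-05). These groups did not overlap either. Within prefix 4, the 1 WT LPS 3h library was higher by 3.25 on the log2 scale.

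After LPS 24h, *Kctd12* read 240, 238 and 257 CPM in WT cells, still above Unstim. in every library (log2 1.96 ± 0.34, edgeR adjusted p = 6.54e-05, and 2.04 within prefix 4). In *Irg1*-/- cells it read 51.4, 47.1 and 78.1 CPM, below every unstimulated library of that genotype, but this difference did not pass (log2 -0.63 ± 0.33, edgeR adjusted p = 0.240). It passed with the label prefix as a term (-1.33, edgeR adjusted p = 0.0316), a fit that took the offset of prefix 4 from WT libraries. A second LPS exposure raised it again. In LPS 24h->LPS 3h it read 1120, 888 and 458 CPM in WT and 319, 444 and 375 CPM in *Irg1*-/- cells, above every LPS 24h library of the same genotype (log2 1.75 ± 0.34, edgeR adjusted p = 0.00158, and log2 2.69 ± 0.35, edgeR adjusted p = 2.76e-06). Within prefixes 1, 2 and 4 the WT rise was 2.22, 1.90 and 0.84, and within prefix 1 the *Irg1*-/- rise was 2.83. When the fit held no other groups, the WT call was lost (edgeR adjusted p = 0.0538).

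The level of *Kctd12* in LPS 24h->LPS 3h did not pass against LPS 3h in WT (log2 0.10 ± 0.33, edgeR adjusted p = 0.853) or in *Irg1*-/- cells (0.21 ± 0.33, edgeR adjusted p = 0.669), and the libraries overlapped in both. With the label prefix as a term the *Irg1*-/- value turned to -0.58 (edgeR adjusted p = 0.407). Over all 8 groups, the order of the means began with WT LPS 24h->LPS 3h (822 ± 336 CPM, SD, n = 3) and WT LPS 3h (769 ± 362), which overlapped. *Irg1*-/- LPS 24h->LPS 3h (380 ± 62.4) and *Irg1*-/- LPS 3h (328 ± 110) came next and also overlapped. WT LPS 24h (245 ± 10.3) and *Irg1*-/- Unstim. (91.0 ± 10.8) each stood apart from their neighbours. WT Unstim. (63.1 ± 13.9) and *Irg1*-/- LPS 24h (58.9 ± 16.8) overlapped at the low end.

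**Figure D2:**
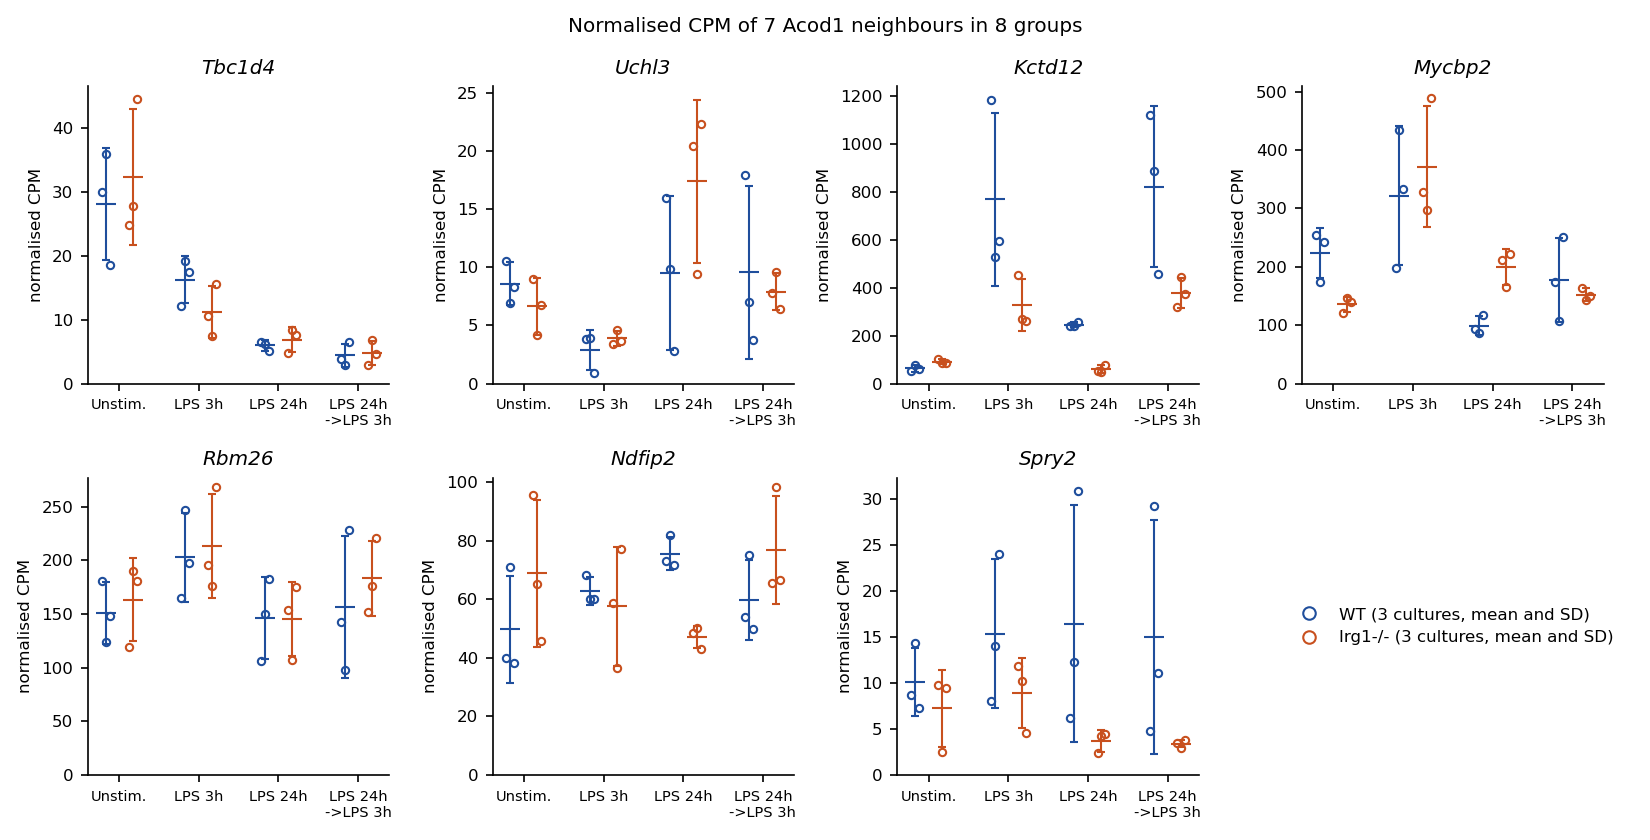
Normalised CPM (y axes, each starting at 0) of the 7 measured neighbours by treatment (x axis), WT in blue and *Irg1*-/- in orange; circles are the 3 cultures, bars the mean and SD. *Kctd12* is highest in the 2 WT groups that had LPS for the last 3 h (means of 769 and 822 CPM), and *Tbc1d4* goes from 28.1 and 32.4 CPM unstimulated to under 10 CPM in every library of LPS 24h and LPS 24h->LPS 3h.

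*Tbc1d4*, the AKT substrate of glucose transporter traffic, fell during LPS exposure in both genotypes. In WT cells it read 30.0, 35.9 and 18.5 CPM unstimulated, 12.2, 19.2 and 17.5 CPM after LPS 3h and 6.57, 6.26 and 5.06 CPM after LPS 24h. In *Irg1*-/- cells it read 24.8, 27.9 and 44.5 CPM, then 10.5, 7.46 and 15.7 CPM, then 4.73, 8.34 and 7.60 CPM. Every LPS 24h library was below every unstimulated one, with the same log2 fold change of -2.24 ± 0.40 in WT (edgeR adjusted p = 0.000101) and in *Irg1*-/- cells (edgeR adjusted p = 0.000105). The 3 h difference passed in *Irg1*-/- cells (-1.54 ± 0.39, edgeR adjusted p = 0.00257) and not in WT (-0.78 ± 0.38, edgeR adjusted p = 0.120), and the difference between these responses was not tested. With the label prefix as a term, the *Irg1*-/- call at 3 h was lost (-1.27, edgeR adjusted p = 0.205).

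In tolerized cells *Tbc1d4* read 3.92, 2.92 and 6.46 CPM in WT and 2.92, 6.74 and 4.63 CPM in *Irg1*-/- cells, below every LPS 3h library of the same genotype. Both differences passed (WT -1.87 ± 0.40, edgeR adjusted p = 0.000832; *Irg1*-/- -1.23 ± 0.40, edgeR adjusted p = 0.0209). Within prefixes 1, 2 and 4 the WT difference was -1.60, -2.64 and -1.41, and within prefix 2 the *Irg1*-/- difference was -1.79. The *Irg1*-/- call was lost without *Irg1*-/- LPS 24h->LPS 3h replicate 3 (edgeR adjusted p = 0.0559) or 1 (0.109) without *Irg1*-/- LPS 3h replicate 3 (0.118) and with the label prefix as a term (0.173). Markers of other cells also differed at the later times. The summed level of 3 fibroblast markers (*Col1a1*, *Col1a2*, *Dcn*) was 241 to 330 CPM in the 6 unstimulated libraries and 94.4 to 221 CPM in the 12 of LPS 24h and LPS 24h->LPS 3h. Over the same libraries the sum of 4 neutrophil markers, mostly *Ngp*, was 34.0 to 65.8 and 0.162 to 5.6 CPM. After LPS 3h the fibroblast sum was 292 to 398 CPM in WT cells, against 241 to 330 CPM unstimulated. In *Irg1*-/- cells it was 272 to 410 CPM, against 251 to 328 CPM. The neutrophil sum after LPS 3h was 36.0 to 60.5 CPM in WT cells, against 40.8 to 61.8 CPM unstimulated. In *Irg1*-/- cells it was 43.1 to 48.3 CPM, against 34.0 to 65.8 CPM. Of the 4 neutrophil markers, *Ly6g*, *Mpo*, *Elane* and *Ngp* were at 0 in 17, 15, 3 and 1 of the 24 libraries. *Ngp* reached 64.7 CPM. The part of other cells in the *Tbc1d4* results was not tested. Fewer cells of a type and less RNA per cell cannot be told apart in bulk libraries.

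*Mycbp2*, the ubiquitin ligase gene on the telomeric side of *Acod1*, passed in different comparisons in the 2 genotypes, and the difference between their responses was not tested. In WT cells it read 255, 175 and 242 CPM unstimulated, 198, 434 and 332 CPM after LPS 3h and 93.1, 86.6 and 117 CPM after LPS 24h. The LPS 24h libraries were all below Unstim. (log2 -1.18 ± 0.31, edgeR adjusted p = 0.00692), while LPS 3h overlapped Unstim. (0.52 ± 0.31, edgeR adjusted p = 0.202). With the label prefix as a term the 24 h call was lost (-0.89, edgeR adjusted p = 0.0793), and within prefix 4 the difference was -0.92. In *Irg1*-/- cells it read 121, 146 and 139 CPM unstimulated, 329, 297 and 489 CPM after LPS 3h and 211, 166 and 222 CPM after LPS 24h. The rise at 3 h passed (1.46 ± 0.31, edgeR adjusted p = 0.000435), and the 24 h libraries, although all above Unstim., did not pass (0.56 ± 0.31, edgeR adjusted p = 0.262).

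Tolerized cells held less *Mycbp2* RNA than cells after a first 3 h of LPS. It read 173, 107 and 251 CPM in WT (log2 -0.86 ± 0.31 against LPS 3h, edgeR adjusted p = 0.0380) and 164, 143 and 149 CPM in *Irg1*-/- cells (-1.29 ± 0.31, edgeR adjusted p = 0.00226). The WT libraries overlapped and the *Irg1*-/- libraries did not. Within prefixes 1, 2 and 4 the WT difference was -0.19, -2.03 and -0.41. The WT call was lost when the fit held no other groups (edgeR adjusted p = 0.125) and without WT LPS 24h->LPS 3h replicate 1 (0.0880) or 2 (0.192) or WT LPS 3h replicate 2 (0.203) or 3 (0.0856). The *Irg1*-/- call was lost with the label prefix as a term (-1.01, edgeR adjusted p = 0.133). Against LPS 24h, tolerized WT cells did not pass (0.84 ± 0.31, edgeR adjusted p = 0.134) but passed without WT LPS 24h->LPS 3h replicate 2 (1.14, edgeR adjusted p = 0.0455).

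*Uchl3*, the ubiquitin hydrolase gene, had low counts (7 to 527 per library) and calls that rested on single libraries. In WT cells it read 10.6, 6.97 and 8.29 CPM unstimulated and 3.83, 3.91 and 0.927 CPM after LPS 3h, without overlap (log2 -1.58 ± 0.58, edgeR adjusted p = 0.0349). This call was lost without WT LPS 3h replicate 3 (-1.11, edgeR adjusted p = 0.193), WT Unstim. replicate 1 (0.110) or WT Unstim. replicate 3 (0.0663). In tolerized WT cells it read 18.0, 7.02 and 3.71 CPM, higher than after LPS 3h (1.72 ± 0.58, edgeR adjusted p = 0.0278) but overlapping it. This second call was lost without WT LPS 24h->LPS 3h replicate 1 (0.84, edgeR adjusted p = 0.328), without WT LPS 3h replicate 3 (1.25, 0.161) and when the fit held no other groups (0.0853).

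The LPS 24h values of *Uchl3* followed the label prefix in WT cells, with 15.9 CPM in the library of prefix 1, 9.83 in that of prefix 2 and 2.77 in that of prefix 4. The pooled difference from Unstim. was 0.14 ± 0.54 (edgeR adjusted p = 0.912), within prefix 4 it was -1.56, and with the label prefix as a term it was -1.47 (edgeR adjusted p = 0.0430). In *Irg1*-/- cells *Uchl3* read 9.04, 4.15 and 6.80 CPM unstimulated, 3.40, 4.61 and 3.69 after LPS 3h, 20.5, 9.39 and 22.4 after LPS 24h and 7.81, 9.57 and 6.38 in tolerized cells. None of these differences passed (edgeR adjusted p of 0.0990 to 0.305). The LPS 24h difference from Unstim. (1.38 ± 0.55) passed with no filter on low counts (edgeR adjusted p = 0.0392) and when the fit held no other groups (0.0413). It turned to -0.80 (edgeR adjusted p = 0.426) with the label prefix as a term, and with that term the LPS 3h difference passed (-2.69, 0.0146).

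*Spry2*, the Sprouty gene farthest from *Acod1* among the members, passed in none of the 8 LPS comparisons. In WT cells it read 8.63, 14.3 and 7.32 CPM unstimulated, 8.02, 14 and 24.0 after LPS 3h, 6.21, 12.2 and 30.9 after LPS 24h and 4.73, 29.1 and 11.1 in tolerized cells. In *Irg1*-/- cells it read 9.82, 2.45 and 9.42 CPM, then 11.8, 10.2 and 4.57, then 2.37, 4.21 and 4.50, then 3.43, 2.97 and 3.8. The lowest adjusted p was that of *Irg1*-/- LPS 24h->LPS 3h against LPS 3h (log2 -1.39 ± 0.59, edgeR adjusted p = 0.0801, no overlap), and this difference passed with no filter on low counts (0.0208) and when the fit held no other groups (0.0272). Its counts were low, 13 to 323 per library. In the order of the 8 group means, from WT LPS 24h (16.4 ± 12.8 CPM, SD, n = 3) down to *Irg1*-/- LPS 24h->LPS 3h (3.40 ± 0.413), every group overlapped the next.

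*Ndfip2*, the adaptor of NEDD4-type ligases, and *Rbm26*, of nuclear RNA decay, also passed in none of the 8 LPS comparisons. *Ndfip2* was between 36.7 and 98.2 CPM and *Rbm26* between 97.8 and 268 CPM over the 24 libraries. The largest differences were 0.70 ± 0.31 for *Ndfip2* (*Irg1*-/- LPS 24h->LPS 3h against LPS 24h, edgeR adjusted p = 0.251) and 0.42 ± 0.31 for *Rbm26* (WT LPS 3h against Unstim., edgeR adjusted p = 0.323). The *Ndfip2* libraries did not overlap in that comparison or in WT LPS 24h against Unstim. (0.60 ± 0.31, edgeR adjusted p = 0.213), being higher in the group named first. *Slain1*, the microtubule plus-end gene, had 2 counts in 1 library (*Irg1*-/- LPS 24h replicate 2, 0.140 CPM) and 0 in the other 23. A count of 0 allows a level of up to 3 counts, which is 0.147 to 0.764 CPM before normalisation depending on the library. This limit covers counting error only.

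In the comparison of genotypes, *Kctd12* and *Spry2* stood lower in *Irg1*-/- cells under LPS, and *Mycbp2* stood higher after LPS 24h. These are the values with which the list was drawn up, so they carry no test. *Kctd12* differed by 0.53 ± 0.33 (log2 *Irg1*-/- minus WT, SE) in Unstim., -1.23 ± 0.33 after LPS 3h, -2.06 ± 0.34 after LPS 24h and -1.11 ± 0.33 in tolerized cells. The 2 genotypes did not overlap in any of the 4 treatments, with *Irg1*-/- higher in Unstim. and lower in the other 3. *Spry2* differed by -0.45 ± 0.57, -0.79 ± 0.58, -2.15 ± 0.59 and -2.14 ± 0.60 in the same order, and its genotypes overlapped in Unstim. and LPS 3h and not in the others. *Mycbp2* differed by -0.73 ± 0.31 in Unstim. and 1.01 ± 0.31 after LPS 24h, without overlap in either, and by 0.21 ± 0.31 and -0.22 ± 0.31, with overlap, in LPS 3h and tolerized cells.

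*Ndfip2* was lower in *Irg1*-/- cells after LPS 24h without overlap (-0.68 ± 0.31), and its other 3 differences overlapped (0.47, -0.13 and 0.36). *Tbc1d4*, *Uchl3* and *Rbm26* overlapped between genotypes in every treatment, with differences of -0.55 to 0.21, -0.37 to 0.88 and -0.01 to 0.23. Of the 7 measured members, 2 did not overlap in Unstim. (1 higher, 1 lower). Of all tested genes 9.44% did not overlap there, 4.34% higher and 5.09% lower in *Irg1*-/- cells. After LPS 3h it was 1 member, lower, beside 9.08% of all genes (4.03% higher, 5.05% lower). After LPS 24h it was 4 members, 1 higher and 3 lower, beside 16.5% (7.51% higher, 8.99% lower), and in tolerized cells it was 2, both lower, beside 12.9% (6.45% higher, 6.42% lower). No reading is taken from these counts. The median difference of the 7 was 0.11, -0.13, -0.01 and -0.22, beside 0.01, -0.02, -0.01 and -0.03 over all tested genes.

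**Figure D3:**
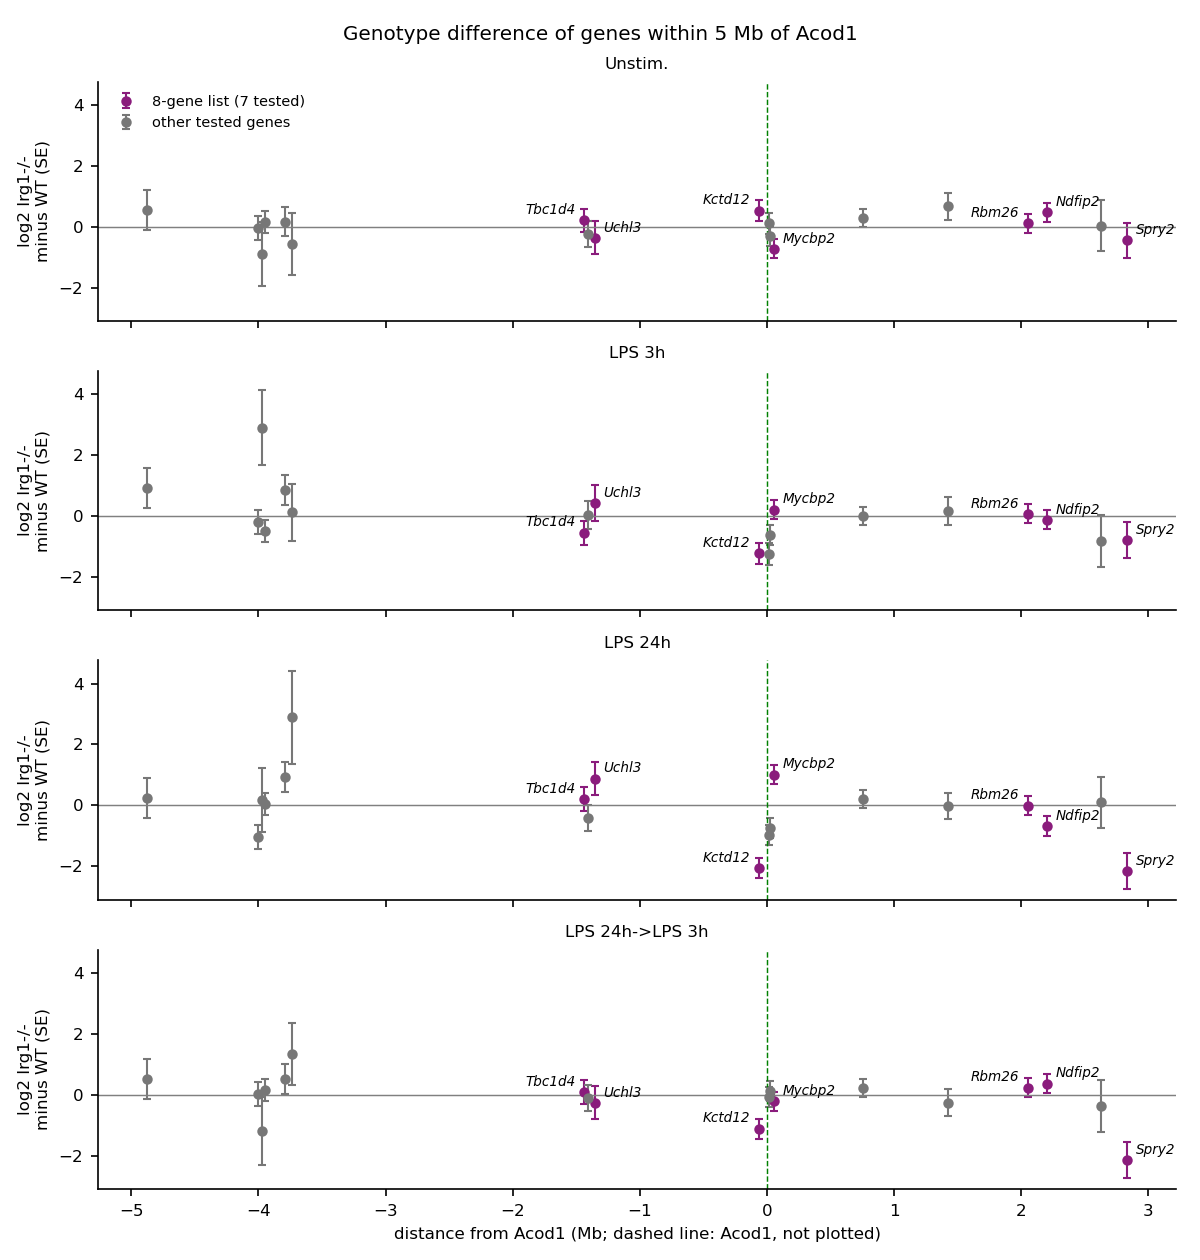
Log2 difference between *Irg1*-/- and WT with its standard error (y axis) against the distance from *Acod1* in Mb (x axis, negative towards the centromere) for tested genes within 5 Mb, one panel per treatment; members are purple and named, other genes grey, and *Acod1* itself is not plotted. *Kctd12*, next to the dashed line, lies at -2.06 after LPS 24h, and *Spry2*, at the right edge, at -2.15.

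The label prefix divided some of these differences. For *Kctd12*, the within-prefix differences between genotypes were 0.54 in Unstim. (prefix 4), -0.21 after LPS 3h (prefix 2, 1 library against 1), -2.06 after LPS 24h (prefix 1, 3 against 1) and -1.46 and -1.47 in tolerized cells (prefixes 1 and 2). The LPS 3h difference was thus much smaller in the only prefix that held both genotypes than in the pooled value. For *Spry2* they were -0.64, -0.24, -0.77, and -0.47 and -3.02. Among LPS-treated libraries of prefix 1, *Spry2* was 4.73 to 8.02 CPM in 3 WT and 2.37 to 4.50 CPM in 5 *Irg1*-/- libraries. In those of prefix 2 it was 12.2 to 29.1 CPM in 3 WT and 3.43 to 11.8 CPM in 2 *Irg1*-/- libraries. The 3 WT libraries of prefix 4, a prefix with no LPS-treated *Irg1*-/- library, held 11.1 to 30.9 CPM. For *Mycbp2* after LPS 24h the value within prefix 1 was 1.09, and for *Ndfip2* it was -0.63.

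**Figure D4:**
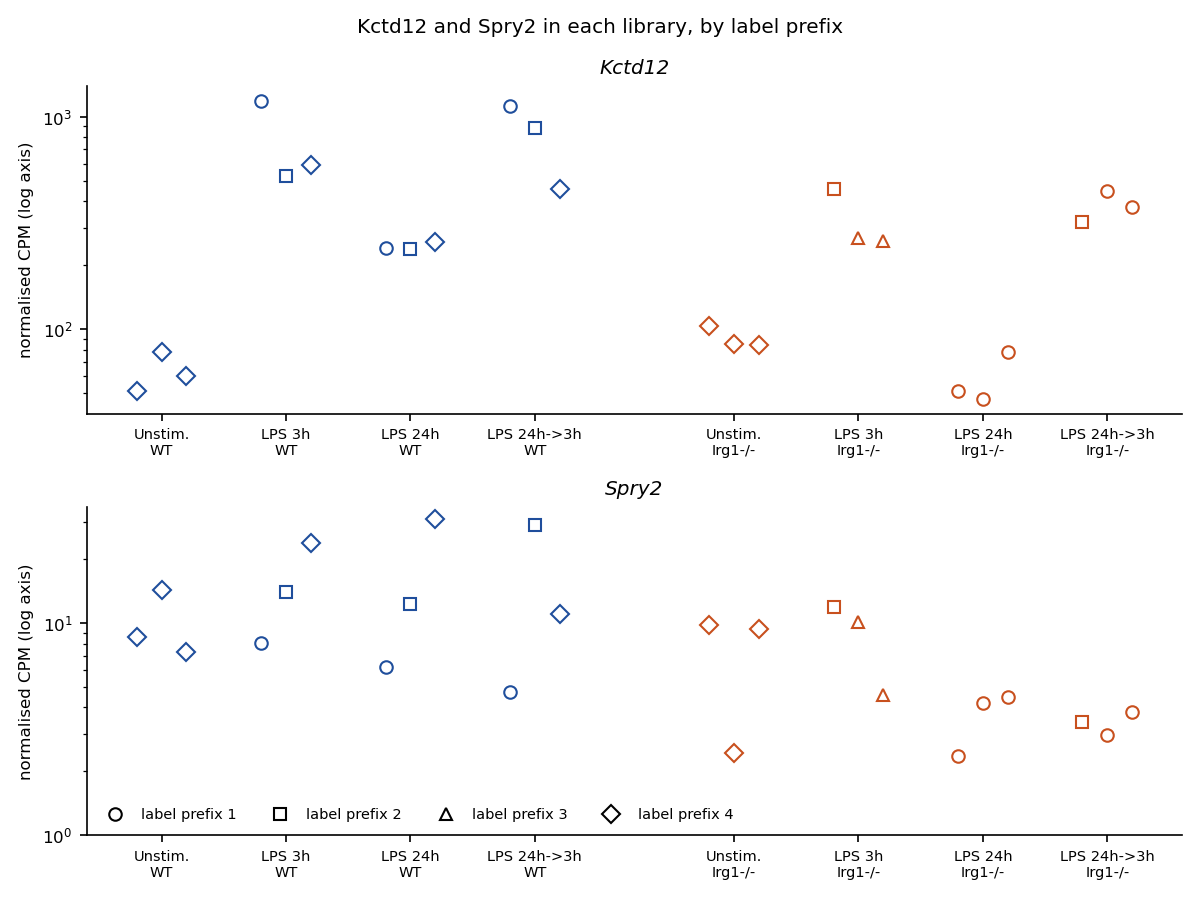
Normalised CPM (log axis) of *Kctd12* and *Spry2* in each of the 24 libraries by group (x axis), WT in blue and *Irg1*-/- in orange, with the label prefix as the symbol. The *Irg1*-/- LPS 24h libraries are all of prefix 1, and the 1 WT library of that group and prefix held 240 CPM of *Kctd12* and 6.21 CPM of *Spry2*.

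Of 20 other genes of the table within 5 Mb of *Acod1*, 12 were tested. For LPS 3h against Unstim., 4 were higher and 2 lower in WT (15.8% and 16.3% of all tested genes). In *Irg1*-/- cells 4 were higher and 1 lower (17% and 18.9%). *Ednrb*, the endothelin B receptor gene at 758 kb, rose at 3 h in WT (log2 1.20 ± 0.30, edgeR adjusted p = 0.00233) and in *Irg1*-/- cells (0.92 ± 0.30, edgeR adjusted p = 0.0162). It was also higher at 24 h in both (1.40 ± 0.30, edgeR adjusted p = 0.00102, and 1.32 ± 0.30, edgeR adjusted p = 0.00211). *Klf5*, a transcription factor gene at 3732 kb, was higher and *Commd6*, near *Uchl3*, lower at 3 h in both genotypes, and *Bora* was lower in WT. *Bora* was near 0, at 6.25, 3.25 and 1.17 CPM unstimulated and 0, 0.593 and 0.265 CPM after LPS 3h in WT. In *Irg1*-/- cells it did not pass (0.31 ± 1.06, edgeR adjusted p = 0.850). At 24 h *Klf5* was lower in WT, but its libraries overlapped and were near 0. It read 0, 0.191 and 2.68 CPM unstimulated and 0, 0 and 0.0955 CPM after LPS 24h, so the difference rested on 1 unstimulated library.

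For LPS 24h->LPS 3h against LPS 24h, none of the 12 passed in WT by edgeR (3.99% of all tested genes did), with 1 at an unadjusted p under 0.05 and 0 by DESeq2. Against LPS 3h in WT, *Commd6* was higher (12.4% of all genes), and *Dis3* and *Klf5* were among 4 genes that were lower (13.1%). The *Dis3* libraries overlapped, at 15.1, 44.5 and 16.3 CPM after LPS 3h and 9.68, 10.5 and 15.3 CPM in tolerized cells. In *Irg1*-/- cells none passed against LPS 3h by edgeR (27.2% of all genes did), with 2 at an unadjusted p under 0.05 and *Klf5* passing by DESeq2. Between genotypes none of the 12 passed in any treatment by edgeR or DESeq2, with 0, 2, 3 and 0 genes at an unadjusted p under 0.05 in edgeR for Unstim., LPS 3h, LPS 24h and tolerized cells. Over all tested genes, *Acod1* included, the share called between genotypes was 0.0421%, 0.00842%, 0.598% and 0.118%.

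Paralogs and known partners of the members elsewhere in the genome were listed by family, and 39 of the 45 listed names were tested. For LPS 3h against Unstim., 5 were higher and 8 lower in WT (15.8% and 16.3% of all tested genes). In *Irg1*-/- cells 8 were higher and 3 lower (17% and 18.9%). For LPS 24h against Unstim. the counts were 7 and 9 in WT (9.25% and 6.98%) and 3 and 5 in *Irg1*-/- cells (7.31% and 6.38%). For LPS 24h->LPS 3h against LPS 3h they were 2 and 8 in WT (12.4% and 13.1%) and in *Irg1*-/- cells (13.1% and 14.1%). No reading is taken from these counts. Against LPS 24h, *Nedd4l* was the 1 gene higher in tolerized WT cells (2.46% of all genes). None passed in *Irg1*-/- cells by edgeR (5.14% of all genes did), with 8 at an unadjusted p under 0.05 and *Spred1* passing by DESeq2. Between genotypes none of the 39 passed in any treatment by edgeR or DESeq2, with 2, 1, 4 and 6 at an unadjusted p under 0.05 in edgeR.

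Some closest paralogs moved differently from the members. *Tbc1d1*, the paralog of *Tbc1d4*, rose after LPS 3h in WT (19.2 ± 1.06 to 120 ± 8.79 CPM, SD, n = 3, edgeR adjusted p = 1.37e-07) and in *Irg1*-/- cells (25.2 ± 8.86 to 133 ± 9.89 CPM, edgeR adjusted p = 6.48e-07). It was lower in tolerized cells than after LPS 3h in both (log2 -2.38 and -2.44, edgeR adjusted p = 2.29e-06 and 1.27e-06). *Kctd12b*, named here after its values were seen, fell after LPS 3h in WT (83.1 ± 23.1 to 9.84 ± 5.14 CPM, edgeR adjusted p = 2.04e-06) and in *Irg1*-/- cells (90.5 ± 41.1 to 12.0 ± 2.41 CPM, edgeR adjusted p = 4.25e-06). *Rbm27* passed once, higher after LPS 3h in *Irg1*-/- cells (0.76 ± 0.29, edgeR adjusted p = 0.0418). *Spry4* passed once, lower after LPS 24h in WT, from 1.25 ± 1.04 to 0.0406 ± 0.0703 CPM (edgeR adjusted p = 0.0367). *Spry1* (at most 1.05 CPM on average in a group), *Ndfip1* (22.1 to 47.0 CPM), *Uchl5* (18.8 to 43.7 CPM) and *Slain2* (56.4 to 143 CPM) passed in none of the 8 LPS comparisons (edgeR; 2, 1, 1 and 2 at an unadjusted p under 0.05, and 0 each by DESeq2).

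Over the 24 libraries, the tested genes whose log2 CPM followed *Kctd12* most closely were *Traf1* (Pearson r = 0.88), *St3gal1* (0.87) and *Ppp1r11* (0.87). For *Spry2* they were *Gsk3b* (0.76), *Pfn1* (0.73) and *Myef2* (0.72). The closest gene was *Shisa9* for *Tbc1d4* (0.94), *Cast* for *Rbm26* (0.88), *Cep57* for *Mycbp2* (0.87), *Thap7* for *Uchl3* (0.82) and *Sec22b* for *Ndfip2* (0.69). Among the members themselves, the highest correlation was between *Mycbp2* and *Rbm26* (0.66) and the lowest between *Uchl3* and *Spry2* (-0.53). *Kctd12* and *Mycbp2*, on either side of *Acod1*, had a correlation of 0.07. These libraries share treatments, label prefixes and depth, so the values are descriptions.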

How the data were processed

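RNA was measured in 24 BMDM libraries (8 groups of 3 independent cultures). Reverse transcription used oligo-dT primers carrying sample barcodes, after which the cDNA was pooled and amplified by PCR without molecular identifiers. The authors aligned reads to mm10 with STAR and deposited raw counts per gene; the counting program, annotation and strand setting are not given in the sources used here. Summary lines (no feature, 22.1% to 33.7% of reads; ambiguous, 0.254% to 0.441%; no unique alignment, 15.1% to 22.5%) were left out.

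Gene IDs were matched to GENCODE M21 without version. Counts were normalised by TMM, filtered by filterByExpr (11878 of 22165 genes kept) and tested with edgeR 4.0.16 (R 4.3.3), glmQLFit and glmQLFTest, with 8 groups over all libraries, Benjamini-Hochberg adjustment over all tested genes and a threshold of 0.05. Log2 CPM within prefixes and for correlations used a prior count of 2. Groups and label prefixes came from the sample labels. Alternatives were DESeq2 1.42.0 (size factors, Wald test), no filter, a minimum mean count of 10, a fit of just the groups compared, the replicate block, the label prefix as a term, and each replicate left out. The members, gene lists and tests were chosen with earlier results of these data known. Named genes were the members, *Acod1*, tested genes within 5 Mb, listed family genes and the nearest patterns. Some of the tested genes within 5 Mb are not reported here by name. With 3 cultures per group and 7 to 9715 counts behind each value of a tested member, low genes carry the larger errors.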

Additional observations from a re-analysis of the deposited data

Results flagged for a closer look

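Several results ran in opposite directions in the 2 genotypes or between treatments in every library, without a test of the difference itself. For LPS 24h against Unstim., *Kctd12* was higher in every WT library and lower in every *Irg1*-/- library. The responses differed by -2.58 on the log2 scale (*Irg1*-/- minus WT). The *Irg1*-/- response did not pass (-0.63, edgeR adjusted p = 0.240), except with the label prefix as a term (-1.33, edgeR adjusted p = 0.0316). That term took the offset of prefix 4 from WT libraries. The same values seen as genotype differences were higher in *Irg1*-/- cells in Unstim. and lower under LPS. The Unstim. difference exceeded that after LPS 3h by 1.76, after LPS 24h by 2.58 and in LPS 24h->LPS 3h by 1.64. *Mycbp2* went the other way. It was lower than Unstim. in every WT LPS 24h library and higher in every *Irg1*-/- one, a difference between responses of 1.74. Its genotype difference in Unstim. was thus -1.74 relative to that after LPS 24h. The *Irg1*-/- response of *Mycbp2* did not pass (0.56, edgeR adjusted p = 0.262). The differences between responses, and between genotype differences, were not tested. Comparisons share libraries, so the values are not independent of each other, and all *Irg1*-/- LPS 24h libraries have label prefix 1 and all unstimulated ones prefix 4.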

How the results depend on the processing

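When the fit held no other groups than those compared, the members called were 0 (edgeR; instead of 1) for WT LPS 24h->LPS 3h against LPS 24h, 1 (instead of 3) for WT LPS 24h->LPS 3h against LPS 3h and 2 (instead of 1) for *Irg1*-/- LPS 24h against Unstim., which was also 2 with no filter and 2 with the label prefix as a term. With the label prefix as a term, 0 members (instead of 2) were called for *Irg1*-/- LPS 24h->LPS 3h against LPS 3h (3, with *Spry2* added, with no filter and with no other groups in the fit), the *Kctd12* genotype difference moved to -0.61 after LPS 3h and -2.48 after LPS 24h, that of *Spry2* after LPS 24h to -1.0, and *Uchl3* in WT LPS 24h against Unstim. reversed from 0.14 to -1.47 (edgeR adjusted p = 0.0430). The cause was not tested. Leaving out 1 replicate gave 1 to 2 called members for WT LPS 3h against Unstim., 1 to 2 for WT LPS 24h->LPS 3h against LPS 24h, 1 to 3 for WT and 1 to 2 for *Irg1*-/- LPS 24h->LPS 3h against LPS 3h, and -2.52 to -1.22 for the *Spry2* genotype difference in tolerized cells, where the smallest size was without WT LPS 24h->LPS 3h replicate 2. Replicate numbers gave no clear pairing of the samples. Correlations of same-numbered deviations were -0.10 to 0.34, and in 0 of 12 comparisons was every pair over 0.1. With 3 libraries per group this cannot exclude a pairing. In each WT group given LPS, replicates 1, 2 and 3 had label prefixes 1, 2 and 4. In 1 of the 12 every library correlated best with its own number. With the replicate block the counts of called members were 2, 3, 1 and 3 in WT and 3, 1, 1 and 2 in *Irg1*-/- cells, as without it. Over all genes, calls for WT LPS 24h->LPS 3h against LPS 24h were 474, and 109 with no other groups in the fit, 749 with no filter and 771 by DESeq2; in *Irg1*-/- cells they were 611 and 1080 with no other groups in the fit. With the label prefix as a term, *Irg1*-/- LPS 3h against Unstim. gave 2361 (instead of 4260) and LPS 24h->LPS 3h against LPS 3h 1407 (instead of 3233). Over all LPS comparisons of single members, 9 of 392 values changed sign under other settings and 24 of 336 with a replicate left out. None of the differences that changed sign had passed in the main fit. Under the prefix term, for LPS 24h against Unstim. *Rbm26* became 0.25 in WT and 0.33 in *Irg1*-/- cells, *Uchl3* became -0.80 and *Spry2* 0.58 in *Irg1*-/- cells, and *Kctd12* became -0.58 for *Irg1*-/- LPS 24h->LPS 3h against LPS 3h. *Uchl3* in WT became -0.0053 for LPS 24h against Unstim. and -0.017 for LPS 24h->LPS 3h against LPS 24h with the replicate block, and -0.0053 for the latter with no other groups in the fit. With a replicate left out, the ranges that crossed 0 in WT were, for LPS 24h against Unstim., -0.47 to 0.52 (*Uchl3*), -0.29 to 0.13 (*Rbm26*) and -0.17 to 1.11 (*Spry2*), for LPS 24h->LPS 3h against LPS 24h, -0.78 to 0.61 (*Uchl3*), -0.27 to 0.38 (*Rbm26*) and -1.03 to 0.73 (*Spry2*), and against LPS 3h, -0.24 to 0.50 (*Kctd12*) and -0.98 to 0.38 (*Spry2*). In *Irg1*-/- cells they were, for LPS 3h against Unstim., -0.47 to 0.11 (*Ndfip2*) and -0.050 to 0.64 (*Spry2*), for LPS 24h against Unstim. -0.37 to 0.0015 (*Rbm26*), and for LPS 24h->LPS 3h against LPS 24h -0.35 to 0.083 (*Spry2*). Genotype differences changed sign in 3 of 196 values under other settings and 16 of 168 with a replicate left out, all of them differences of at most 0.26 in size as reported. Among the single members' other values, 19 lost and 7 gained a call, and 2 moved by more than the replicate SD. Counts of 7 to 527 for *Uchl3*, 13 to 323 for *Spry2* and 30 to 832 for *Tbc1d4* limit those genes.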
